A study of Mus musculus with 2 samples.

Results

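*Ifitm1*, *Ifitm2*, *Ifitm3*, *Ifitm6*, *Bst2* and *Ly6e* code for small proteins of cell membranes, most of which are known for acting against enveloped viruses. They were chosen by name and are 6 of the 55357 genes in the count matrices. RNA was counted in single CD45+ cells sorted from subcutaneous tumours of MC38, a mouse colon cancer line, grown in C57BL/6 mice of 2 groups, UEIS KI and UEIS LSL. The labels do not expand KI and LSL, and they give neither the age of the mice, the promoter or cell type that drives UEIS, nor the number of mice behind a library. By its title the study concerns a micropeptide, UEIS, and type I interferon signalling, and KI cells were set against LSL cells. Each group held 1 library, so no difference between groups or gates could be tested, and all intervals are 95% intervals that cover counting error only.

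IFITM proteins sit in the outer and endosomal membranes and hinder the fusion of virus and cell membranes. IFITM1 is found mostly at the cell surface, and IFITM2 and IFITM3 mostly in endosomes. BST2, or tetherin, holds budding virus particles at the surface and in mice is a marker of plasmacytoid dendritic cells. LY6E is held at the surface by a lipid anchor and hinders coronavirus entry. Type I interferon raises the RNA of *Ifitm3*, *Bst2* and *Ly6e* in many mouse cells, on top of a steady level that several cell types keep without it.

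The 4 *Ifitm* genes lie within 63088 bases of mouse chromosome 7 (GRCm38). *Ifitm2* spans chr7:140954837-140955987 on the minus strand and *Ifitm1* chr7:140967221-140969825 on the plus strand. *Ifitm3* spans chr7:141009586-141010770 and *Ifitm6* chr7:141015699-141017924, both on the minus strand. *Bst2* lies at chr8:71534255-71537456 on the minus strand and *Ly6e* at chr15:74955051-74959905 on the plus strand. All are annotated as protein-coding. RefSeq promoter windows, from 250 bases before to 50 bases after the start of transcription on GRCm38.p6, were matched for 5 of the 6 genes, all but *Ly6e*. They were searched on both strands for the interferon-stimulated response element (ISRE, searched as GAAA, any 2 bases and GAAA), a motif through which type I interferon acts on its target genes. The windows of 4 of these genes follow, with ISRE letters in capitals. They were picked with the KI and LSL levels known, and no link between the letters and those levels was tested.
Ifitm3 (chr7:141010695-141010994, minus strand): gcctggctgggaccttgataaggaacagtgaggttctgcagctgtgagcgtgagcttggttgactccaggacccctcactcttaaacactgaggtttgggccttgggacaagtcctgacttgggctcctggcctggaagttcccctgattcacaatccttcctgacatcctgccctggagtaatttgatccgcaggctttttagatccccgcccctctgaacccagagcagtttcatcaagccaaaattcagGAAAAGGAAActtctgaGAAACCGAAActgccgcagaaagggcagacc
Bst2 (chr8:71537423-71537722, minus strand): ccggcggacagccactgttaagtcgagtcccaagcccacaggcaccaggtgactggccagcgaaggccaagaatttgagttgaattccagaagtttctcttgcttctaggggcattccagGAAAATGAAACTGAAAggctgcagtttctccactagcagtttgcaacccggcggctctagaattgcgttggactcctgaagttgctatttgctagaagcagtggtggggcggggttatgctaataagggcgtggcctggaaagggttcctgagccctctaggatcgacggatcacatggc
Ifitm2 (chr7:140955912-140956211, minus strand): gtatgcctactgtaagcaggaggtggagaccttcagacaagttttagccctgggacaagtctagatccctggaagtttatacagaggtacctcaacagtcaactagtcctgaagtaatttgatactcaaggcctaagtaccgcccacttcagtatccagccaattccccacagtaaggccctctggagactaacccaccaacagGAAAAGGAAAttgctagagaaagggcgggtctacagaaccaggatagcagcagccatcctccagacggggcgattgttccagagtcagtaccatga
Ifitm1 (chr7:140967826-140968125, plus strand): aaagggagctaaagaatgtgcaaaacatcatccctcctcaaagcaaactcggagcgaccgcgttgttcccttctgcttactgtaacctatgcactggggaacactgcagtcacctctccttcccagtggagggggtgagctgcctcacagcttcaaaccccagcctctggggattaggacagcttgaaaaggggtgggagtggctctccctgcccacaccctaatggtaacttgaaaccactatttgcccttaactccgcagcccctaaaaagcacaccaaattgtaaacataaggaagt
The *Ifitm3* window held 2 ISRE matches, which began at 3 and 20 from the start of transcription. In the *Bst2* window 2 ISRE matches overlapped each other at -130 and -124. *Ifitm2* had 1 ISRE match, at -46, and *Ifitm1* and *Ifitm6*, whose window is not printed, held none. The windows of *Ifitm1* and *Ifitm6* (chr7:141016843-141017142) lie inside the gene spans given above. The bases before the outermost annotated starts of these genes were therefore not searched. Of 32851 RefSeq promoter windows of this length, 3.44% held the ISRE letters. A match is a description of the letters and not a binding site.

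The libraries held 9734 barcodes and 99404988 UMIs (unique molecular identifiers, 1 per captured RNA molecule) in UEIS KI, and 9527 barcodes and 92764697 UMIs in UEIS LSL, and 34 barcode sequences occurred in both. *Ptprc*, the CD45 gene, was seen in 75.4% of KI and 74.1% of LSL barcodes kept. Barcodes were given a cell type by fixed marker genes, and those that passed more than 1 gate were left out (273 in KI and 308 in LSL). Macrophages, gated on C1q RNA, numbered 5916 in KI and 5573 in LSL, and myeloid barcodes with macrophage markers but little C1q, called C1q-low myeloid here, 1735 in KI and 1675 in LSL. The smaller gates held 151 KI and 170 LSL monocytes, 80 KI and 155 LSL type 2 conventional dendritic cells (cDC2), 101 KI and 29 LSL neutrophils, 52 KI and 85 LSL mature dendritic cells, 114 KI and 127 LSL T cells, 26 KI and 48 LSL type 1 conventional dendritic cells, and 42 KI and 27 LSL B cells. The 159 KI fibroblasts showed *Ptprc* in 11.3% of barcodes and the 280 LSL fibroblasts in 15.4%, which goes against the CD45+ sort. C1q RNA outside the macrophage gate stood at 2.29% to 10.4% of the macrophage level in KI and at up to 5.85% in LSL, a gauge of free RNA that the gates themselves limit. Levels are UMIs per 1000000 UMIs of the gate (CPM), and since the 3' method counts 1 end of each molecule, they are not divided by gene length.

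*Ifitm1*, the surface member of the family, was highest in cDC2 and neutrophils and low in macrophages. Its level in cDC2 was 2828 CPM in KI (2698 to 2964) and 2091 CPM in LSL (2017 to 2168), the highest of all gates with at least 20 barcodes in both libraries. Neutrophils followed, with 1596 CPM in KI and 1235 CPM in LSL, where 29 barcodes were gated. Macrophages held 66.3 CPM in KI and 119.8 CPM in LSL, so that cDC2 stood 42.7-fold above macrophages in KI and 17.5-fold in LSL. The order of cDC2 over neutrophils, and of neutrophils over the next gate, held beyond counting error in both libraries. In LSL neutrophils, however, 5 of the 29 barcodes held 66.2% of the *Ifitm1* UMIs, and without them the level was 460.0 CPM, below the 598 CPM of LSL mature dendritic cells, the next gate. Without the 5 highest KI neutrophils it was 1222 CPM in KI. After each barcode was thinned to 1000 UMIs, *Ifitm1* was seen in 76.3% of KI and 63.9% of LSL cDC2 and in 4.37% of KI and 7.16% of LSL macrophages. Without thinning the shares were 93.8% of KI and 85.2% of LSL cDC2 and 16.3% of KI and 22.8% of LSL macrophages. B cells, with a median of 1294.5 UMIs in KI and 1583 in LSL, gave 2.94% in KI and 0% in LSL after thinning, where 0 of 25 barcodes allows a share with a UMI at that depth of up to 13.7% by its exact interval. Without thinning they gave 4.76% in KI and 3.70% in LSL. The median depth was 7245 UMIs in KI and 8135 in LSL cDC2, and 10026 in KI and 9365 in LSL macrophages. Mast cells or basophils, a small gate, held 67 *Ifitm1* UMIs over 6 KI barcodes and 0 over 5 LSL barcodes, where the floor of 3 counts is 376 CPM.

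*Ifitm2*, which codes for an endosomal member of the family, was abundant in all of the larger gates. It was highest in neutrophils at 2039 CPM in KI and 2252 CPM in LSL. Monocytes held 1918 CPM in KI and 1519 CPM in LSL, and cDC2 held 1911 CPM in KI and 1503 CPM in LSL. In KI the neutrophil, monocyte and cDC2 levels did not differ beyond counting error, and in LSL neither did the monocyte and cDC2 levels. In LSL neutrophils 5 of the 29 barcodes held 37.0% of the *Ifitm2* UMIs. Without them the level was 1537 CPM, near that of LSL monocytes. Macrophages held 1189.9 CPM in KI and 1237 CPM in LSL, and T cells 665 CPM in KI and 555 CPM in LSL.

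*Ifitm3*, whose protein is known for blocking influenza virus, was highest in monocytes, which held 2586 CPM in KI (2477 to 2698) and 4254 CPM in LSL (4106 to 4407). The next gate was cDC2, at 1975 CPM in KI and 2085 CPM in LSL, below monocytes beyond counting error in both libraries. Macrophages held 745 CPM in KI and 1129 CPM in LSL, and T cells 642 CPM in KI and 1214 CPM in LSL. Among gates with at least 20 barcodes mature dendritic cells were lowest, with 269 CPM in KI and 550 CPM in LSL, where they did not differ beyond counting error from the 20 NK cells. After thinning to 1000 UMIs, *Ifitm3* was seen in 78.8% of KI and 90.6% of LSL monocytes and in 46.8% of KI and 56.7% of LSL macrophages (without thinning, 97.4% of KI and 99.4% of LSL monocytes and 91.0% of KI and 94.96% of LSL macrophages).

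*Ifitm6*, a less studied mouse member of the family, was the rarest of the 4 in macrophages of both libraries. Monocytes held 214 CPM in KI and 256 CPM in LSL, against 18.1 CPM in KI macrophages and 19.2 CPM in LSL macrophages. The KI neutrophils held more still, 380.0 CPM from 145 UMIs, of which 62.1% came from 5 barcodes. The 29 LSL neutrophils held 2 UMIs, or 33.4 CPM. The ratio of KI to LSL neutrophils was 11.4, with an interval from 3.10 to 94.9. Mature dendritic cells held 0 UMIs in KI, with a floor of 9.59 CPM, and 2 UMIs in LSL.

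*Bst2* RNA was highest in the plasmacytoid dendritic cell gate, the type it marks in mice, although only 4 barcodes were gated in each library. They held 1342 CPM in KI and 2215 CPM in LSL, 6.46 times the macrophage level in KI (4.76 to 8.57) and 8.59 times in LSL (6.04 to 11.8). Among the larger gates monocytes held 214 CPM in KI and 466 CPM in LSL, and macrophages 208 CPM in KI and 258 CPM in LSL. The 5 monocytes with the most *Bst2* held 42.6% of its UMIs in KI and 18.0% in LSL. Without them monocytes held 128 CPM in KI and 394 CPM in LSL. In KI no pair of neighbours in the order of gates differed beyond counting error. In LSL only C1q-low myeloid cells at 233 CPM and fibroblasts at 186 CPM were neighbours that did. Gates further apart did differ. C1q-low myeloid cells stood at 0.520 times the macrophage level in KI (0.496 to 0.545) and 0.902 times in LSL (0.869 to 0.937). Fibroblasts stood at 0.415 times in KI (0.365 to 0.470) and 0.721 times in LSL (0.675 to 0.770).

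*Ly6e* was high in lymphocytes and monocytes and low in mature dendritic cells. B cells held 1039 CPM in KI and 1278 CPM in LSL, monocytes 895 CPM in KI and 1340.1 CPM in LSL, and T cells 852 CPM in KI and 913 CPM in LSL. B cells and monocytes were neighbours in both libraries and did not differ beyond counting error. Mature dendritic cells, marked by the migration receptor gene *Ccr7*, held 11 UMIs or 35.2 CPM in KI and 29 UMIs or 54.0 CPM in LSL. The next gate up stood 11.3-fold higher in KI (6.32 to 22.7) and 9.26-fold higher in LSL (5.37 to 15.99).

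**Figure D1:**
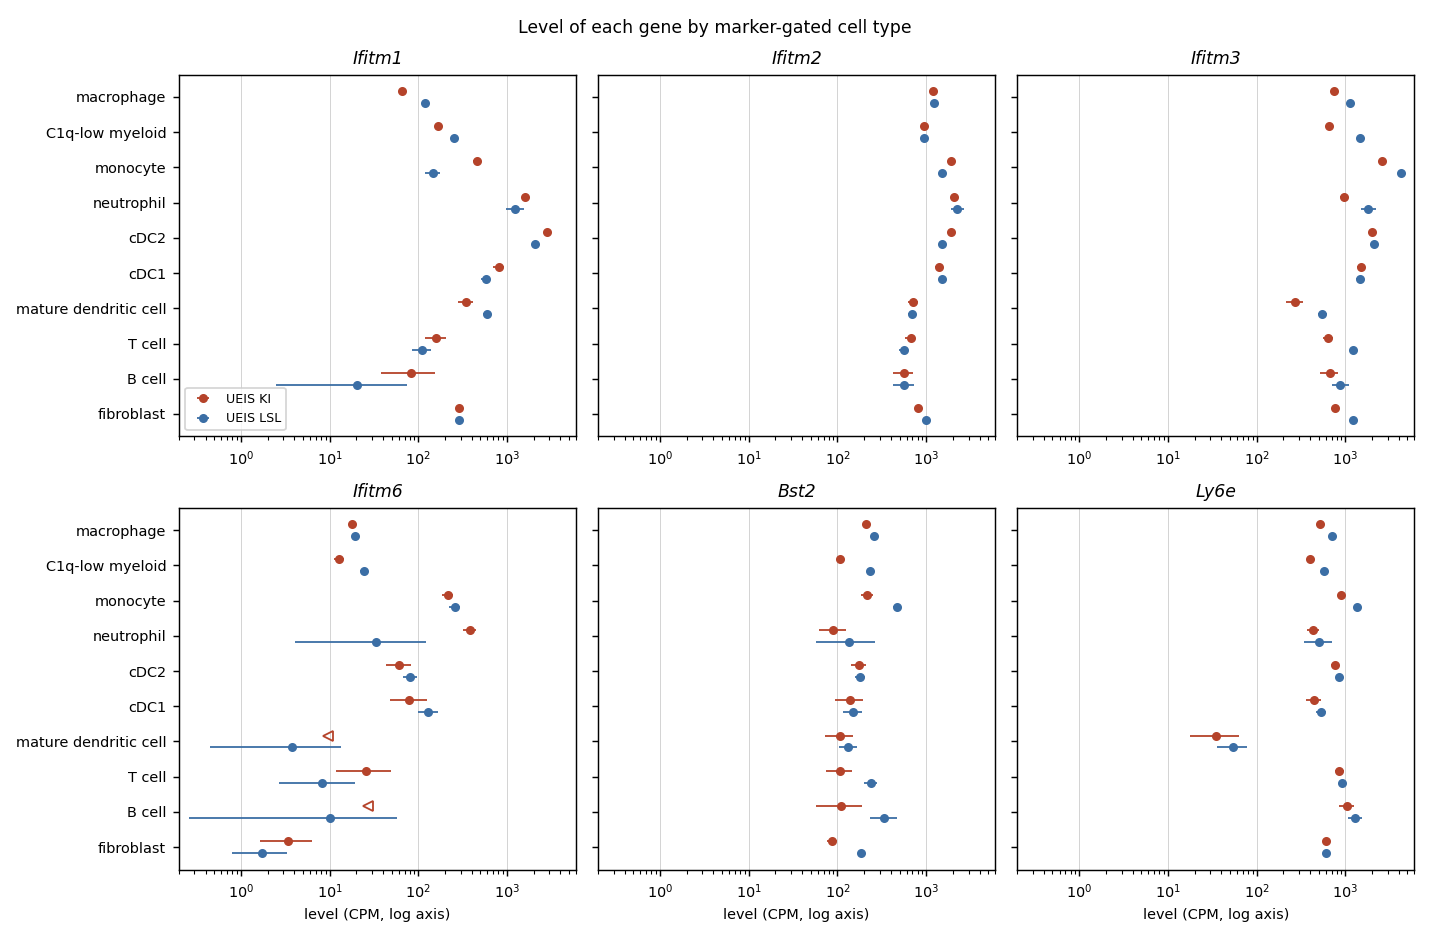
Level of each gene (CPM, log axis) in 10 gated cell types, for the UEIS KI and UEIS LSL libraries, with 95% counting intervals; an open triangle marks 0 UMIs and is drawn at the floor of 3 counts. *Ifitm1* peaks in cDC2, *Ifitm3* in monocytes, and *Ly6e* drops to 35.2 CPM in KI and 54.0 CPM in LSL mature dendritic cells.

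Monocytes held more *Ifitm3* and *Ifitm6* than macrophages in both libraries, *Ly6e* and *Ifitm2* were higher by smaller margins, and the *Ifitm1* and *Bst2* ratios depended on the library. *Ifitm3* was 3.47-fold higher in monocytes than in macrophages in KI (3.32 to 3.63) and 3.77-fold higher in LSL (3.64 to 3.91). *Ifitm6* was 11.9-fold higher in KI (10.1 to 13.9) and 13.3-fold higher in LSL (11.3 to 15.5). Shares were taken over all genes with at least 50 UMIs summed over both gates, also those with few or 0 monocyte UMIs. Of these genes, 20.4% in KI and 20.8% in LSL were at least 1.5-fold higher in monocytes. At least 1.5-fold lower were 23.8% in KI and 24% in LSL. A 0 was set to 3 counts, which is 3.66 CPM in KI and 4.13 CPM in LSL monocytes. Rare macrophage genes can thus count as higher in monocytes. *Ly6e* was past 1.5-fold as well, with 1.72-fold in KI (1.60 to 1.86) and 1.87-fold in LSL (1.75 to 1.99). The *Ifitm2* ratio was 1.61 in KI (1.53 to 1.69) and 1.23 in LSL (1.16 to 1.30). *Bst2* was at 1.03 in KI (0.885 to 1.20) and 1.81 in LSL (1.62 to 2.01). The KI value rested on few barcodes, as 5 of the 151 KI monocytes held 42.6% of the *Bst2* UMIs. Without them KI monocytes held 128 CPM, below the 208 CPM of KI macrophages. For *Ifitm1* the ratio was 6.97 in KI (6.26 to 7.74) and 1.22 in LSL (0.995 to 1.47). Several of these values depended on the monocyte gate. Without its *Ly6c2* rule the log2 ratio of *Bst2* in KI was -0.64 against 0.05, that of *Ifitm3* in KI 1.16 against 1.80, and that of *Ifitm6* in KI 2.42 against 3.57. Over all alternatives the log2 ratio of *Ifitm1* ran from 1.09 to 2.80 in KI and from -0.44 to 0.92 in LSL.

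C1q-low myeloid cells lay nearer to macrophages than monocytes did for *Ifitm3*, *Ifitm6* and *Ly6e*. Genes were again counted with at least 50 UMIs summed over both gates. Of these, 10.5% in KI and 12.8% in LSL were at least 1.5-fold higher in C1q-low myeloid cells than in macrophages. *Ifitm1* was among them, at 2.495-fold in KI and 2.09-fold in LSL. *Ifitm3* stood at 0.885 times the macrophage level in KI and 1.29 times in LSL, and *Ifitm6* at 0.710 times in KI and 1.27 times in LSL. *Ifitm2* stood at 0.789 times in KI and 0.764 times in LSL, and *Ly6e* at 0.767 times in KI and 0.811 times in LSL. *Bst2* stood at 0.520 times in KI, past the limit downwards, as 10.7% of genes were in KI, and at 0.902 times in LSL, where 9.7% were.

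**Figure D2:**
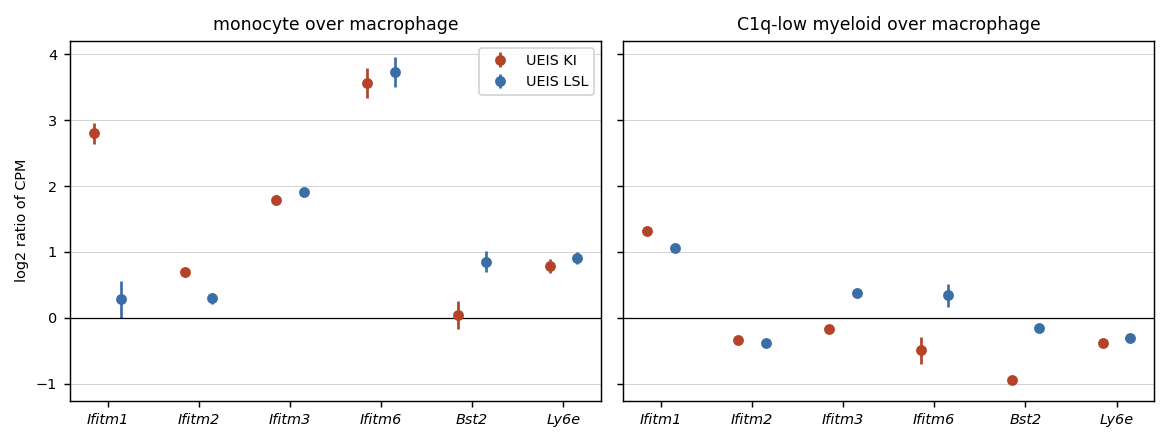
Ratio of each gene's level in monocytes and in C1q-low myeloid cells to its level in macrophages of the same library on the log2 scale, with 95% counting intervals, for UEIS KI and UEIS LSL; 0 means an equal level. In monocytes *Ifitm3* lies near 1.80 in KI and 1.91 in LSL, whereas *Ifitm1* lies at 2.80 in KI and 0.28 in LSL.

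The same counts can be read as each paralog's share of all *Ifitm* UMIs (7 family genes in the matrix), which does not depend on the other RNA of a cell. In macrophages *Ifitm2* led with 58.9% in KI and 49.4% in LSL, and *Ifitm3* followed with 36.8% in KI and 45.0% in LSL. In monocytes the order was the other way round, with *Ifitm3* at 49.9% in KI and 68.8% in LSL and *Ifitm2* at 37.0% in KI and 24.6% in LSL. *Ifitm6* made up 4.14% of the monocyte family in each library, against 0.895% in KI and 0.768% in LSL macrophages. The use of *Ifitm1* ran from 3.28% in KI and 4.78% in LSL macrophages to 41.7% in KI and 36.3% in LSL cDC2. It led in KI cDC2, whereas in LSL cDC2 *Ifitm3* stood level with it, at 36.2%.

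*Ifitm2* also had the largest share in neutrophils and mature dendritic cells, but in LSL its interval overlapped that of the next gene in both gates. In neutrophils *Ifitm2* made up 40.9% in KI and 42.2% in LSL (36.7 to 47.8). *Ifitm1* made up 32.0% in KI and 23.1% in LSL, and *Ifitm3* 19.3% in KI and 34.1% in LSL (28.9 to 39.5). Of the 29 LSL neutrophils, the 5 highest for each gene held 67.9% of its UMIs for *Ifitm3* and 66.2% for *Ifitm1*. The intervals do not cover this. Without the 5 highest, *Ifitm3* stood at 938 CPM in LSL neutrophils, against 1818 CPM as gated. Mature dendritic cells had 53.8% *Ifitm2* in KI and 37.4% in LSL (34.4 to 40.5). Their *Ifitm1* share was 25.9% in KI and 32.5% in LSL (29.5 to 35.5). C1q-low myeloid cells had a different leader in each library, with *Ifitm2* at 52.8% in KI and 35.2% in LSL and *Ifitm3* at 37.1% in KI and 54.5% in LSL. In T cells *Ifitm3* led in LSL, while in KI it and *Ifitm2* did not differ beyond counting error, with *Ifitm2* at 44.0% in KI and 29.2% in LSL and *Ifitm3* at 42.5% in KI and 64.0% in LSL. The summed family level was 2021 CPM in KI and 2506 CPM in LSL macrophages, 5185 CPM in KI and 6182 CPM in LSL monocytes, and 6778 CPM in KI and 5763 CPM in LSL cDC2. The last 400 bases of *Ifitm2* and *Ifitm3* transcripts share 25.4% (*Ifitm2*) and 12.3% (*Ifitm3*) of their 50-base words with other genes. Of the *Ifitm3* words, 15 occur in *Ifitm1*, a member of the same family. The *Ifitm* shares are uncertain for this reason, by an amount that was not tested. The partner genes outside the family that the matrix lists held between 0 and 13 UMIs per library, and *Gm45717*, which overlaps *Ifitm2* on the same strand, held 0 in both.

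**Figure D3:**
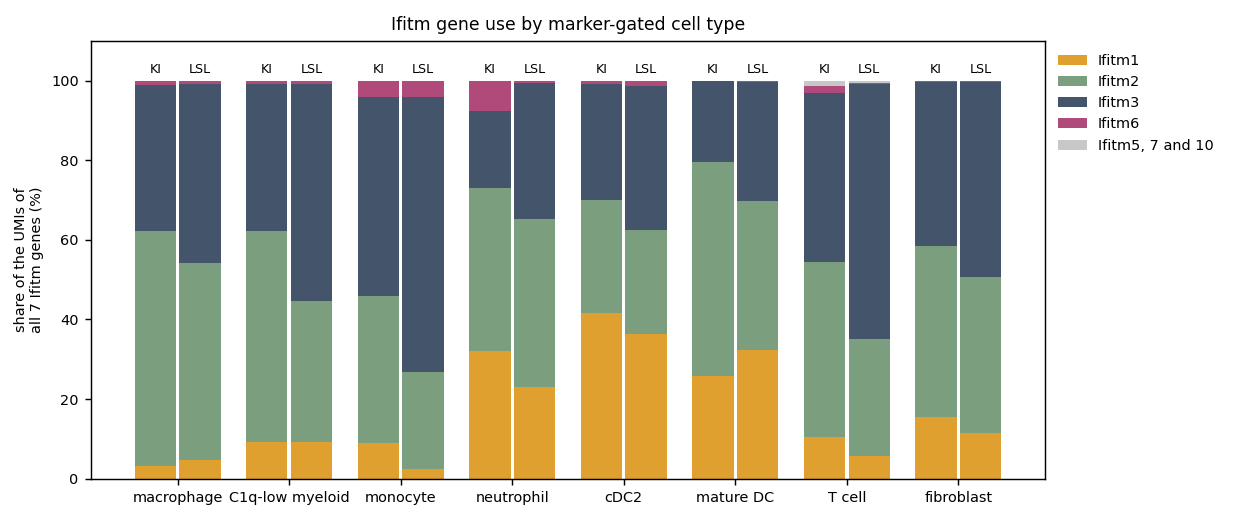
Share of all *Ifitm* family UMIs (percent, stacked to 100) taken by each paralog in each gated cell type, with UEIS KI left of UEIS LSL; the grey segment holds *Ifitm5*, *Ifitm7* and *Ifitm10*. *Ifitm2* leads in macrophages and *Ifitm3* in monocytes of both libraries, and *Ifitm1* leads in KI cDC2 and stands level with *Ifitm3* in LSL cDC2.

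KI cells held less *Ifitm3* and *Bst2* RNA than LSL cells beyond counting error in 5 of the 6 gates large enough to set all genes beside them (macrophage, C1q-low myeloid, monocyte, cDC2, T cell and fibroblast), and less *Ly6e* RNA in 4. The intervals of *Ifitm3* and *Bst2* in cDC2, and of *Ly6e* in T cells and fibroblasts, included 1. *Ifitm3* was at least 1.5-fold lower in 5 of the 6, *Bst2* in 4 and *Ly6e* in 0. The *Ifitm2* ratio was below 1 in 3 gates and above 1 in 3, in each by less than 1.5-fold. That of *Ifitm1* was below 1 in 2 gates, past 1.5-fold in both, and above 1 in 4, past it in 1. *Ifitm6* was measured, with at least 50 UMIs over both libraries, in 4 gates. It was lower beyond counting error in 1 of them, C1q-low myeloid cells, and the intervals of the others included 1.

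In macrophages the ratio of KI to LSL was 0.660 for *Ifitm3* (0.652 to 0.667) and 0.553 for *Ifitm1* (0.533 to 0.575). Both were at least 1.5-fold lower, as 5.21% of 13515 measured genes were, and none of the 6 was at least 1.5-fold higher, as 5.8% were. *Ifitm3* lay close to the limit and was short of it under some alternatives, down to a log2 ratio of -0.45 against -0.60. *Bst2* stood at 0.805 (0.787 to 0.824) and *Ly6e* at 0.724 (0.714 to 0.735). *Ifitm2* stood at 0.962 (0.952 to 0.972) and *Ifitm6* at 0.940 (0.866 to 1.02), and both were above 1 under some alternatives. Ranked among all measured genes from the lowest ratio, *Ifitm1* lay at percentile 2.79, *Ifitm3* at 5.02, *Ly6e* at 7.01 and *Bst2* at 11.7, while *Ifitm2* lay at 34.7.

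C1q-low myeloid cells had the lowest *Ifitm3* ratio of the 6 gates, and markers of other cell types differed in this gate as well. *Ifitm3* was at 659 CPM in KI and 1461 CPM in LSL, a ratio of 0.451 (0.441 to 0.461), and *Bst2* at 108 CPM in KI and 233 CPM in LSL, a ratio of 0.464 (0.439 to 0.491). *Ifitm6* had 12.9 CPM in KI and 24.5 CPM in LSL, a ratio of 0.525 (0.445 to 0.620). *Ifitm1* stood at 0.662 and so passed the limit too, which 8.52% of genes in this gate passed downwards and 4.18% upwards. *Ly6e* stood at 0.685 and *Ifitm2* at 0.992, the closest to 1. Over the alternatives the log2 ratio ran from -0.60 to -0.21 for *Ifitm1* and from -0.93 to -0.21 for *Ifitm6*. The 8 neutrophil markers summed to 1070.3 CPM in KI and 377 CPM in LSL in this gate, with 1 of them at 0 in KI and 2 in LSL. *Mmp9*, a gelatinase gene, made up most of that sum, at 966 CPM in KI and 312 CPM in LSL, while *S100a8* stood at 41.0 CPM in KI and 19.6 CPM in LSL. The 8 monocyte markers summed to 899.9 CPM in KI and 872 CPM in LSL with none at 0, although *Chil3* was at 316 CPM in KI and 99.7 CPM in LSL and *Plac8* at 54.5 CPM in KI and 192 CPM in LSL. The 6 cDC2 markers summed to 48.1 CPM in KI and 73.3 CPM in LSL, with none at 0. Their part in the ratios of this gate was not tested.

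In monocytes *Bst2* had a ratio of 0.460 (0.381 to 0.553) and *Ifitm3* of 0.608 (0.575 to 0.643), in a gate where 5.54% of 3952 measured genes were at least 1.5-fold lower. Without the 5 monocytes with the most *Bst2* in each library, its levels were 128 CPM in KI and 394 CPM in LSL. *Ly6e*, at 0.667 (0.606 to 0.735), stood just short of that limit, and *Ifitm6* stood at 0.838 (0.678 to 1.04). *Ifitm2* was higher in KI, at 1.26 (1.17 to 1.37). *Ifitm1* was the exception among the 6 genes, at 3.17 (2.55 to 3.97), where 6.1% of genes were at least 1.5-fold higher.

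That *Ifitm1* value rested on few monocytes. An *Ifitm1* UMI was seen in 46 of 151 KI and 37 of 170 LSL monocytes, and the 5 barcodes with the most held 58.6% of its UMIs in KI and 39.6% in LSL. Without these 5 barcodes the levels were 199 CPM in KI and 90.6 CPM in LSL. In a monocyte gate that did not require *Ly6c2* they were 257 CPM in KI and 226 CPM in LSL, a log2 ratio of 0.19. The sum of the neutrophil markers was higher in KI monocytes as well, mostly through *S100a8* and *Il1r2*. It was 406 CPM in KI and 89.4 CPM in LSL. *S100a8* stood at 279 CPM in KI and 59.2 CPM in LSL, and *Il1r2* at 86.5 CPM in KI and 9.63 CPM in LSL. *Csf3r* was nearly level, at 20.7 CPM in KI and 19.3 CPM in LSL. Each of the others stood at 8.53 CPM or less in both libraries, and 1 of 8 markers was at 0 in KI and 4 of 8 in LSL. The 6 cDC2 markers summed to 71.9 CPM in KI and 93.6 CPM in LSL, with 0 at 0 in KI and 1 in LSL. Among the 50 KI and 114 LSL monocytes without any UMI of either list, *Ifitm1* stood at 141 CPM in KI and 88.4 CPM in LSL, a log2 ratio of 0.68. The part of neutrophil and cDC2 RNA in this ratio was not tested.

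Outside these myeloid gates, *Ifitm3* and *Bst2* were lower in KI T cells and fibroblasts and, as gated, nearly equal in cDC2. In T cells *Ifitm3* stood at 0.529 (0.453 to 0.615) and *Bst2* at 0.446 (0.302 to 0.644), where 9.59% of 2920 genes were at least 1.5-fold lower and 8.7% higher. *Ifitm1* in T cells stood at 1.43 (0.979 to 2.07), and its log2 ratio ran from -2.18 to 0.76 over the alternatives. In fibroblasts *Ifitm3* stood at 0.628 (0.599 to 0.659) and *Bst2* at 0.463 (0.402 to 0.533), where 7.99% of genes were at least 1.5-fold lower and 5.86% higher. *Ly6e* was equal in fibroblasts, with 608.7 CPM in KI and 609.7 CPM in LSL, and stood in T cells at 0.932 (0.807 to 1.08). In cDC2 *Ifitm3* stood at 0.947 (0.886 to 1.01), *Bst2* at 0.965 (0.763 to 1.21) and *Ly6e* at 0.897 (0.805 to 0.998). The cDC2 values of *Ifitm3* and *Bst2* turned to just above 1 under 1 alternative each. Over the alternatives the log2 ratio in cDC2 ran from -0.26 to 0.01 for *Ifitm3* and from -0.42 to 0.01 for *Bst2*. The 5 cDC2 barcodes with the most *Bst2* held 40.7% of its UMIs in KI and 17.1% in LSL. Without them *Bst2* stood at 112 CPM in KI and 155 CPM in LSL, against 173 and 179 CPM as gated. *Ifitm1* and *Ifitm2* were higher in KI cDC2, at 1.35 (1.27 to 1.43) and 1.27 (1.18 to 1.37), short of the limit that 4.45% of genes passed upwards and 6.01% downwards.

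**Figure D4:**
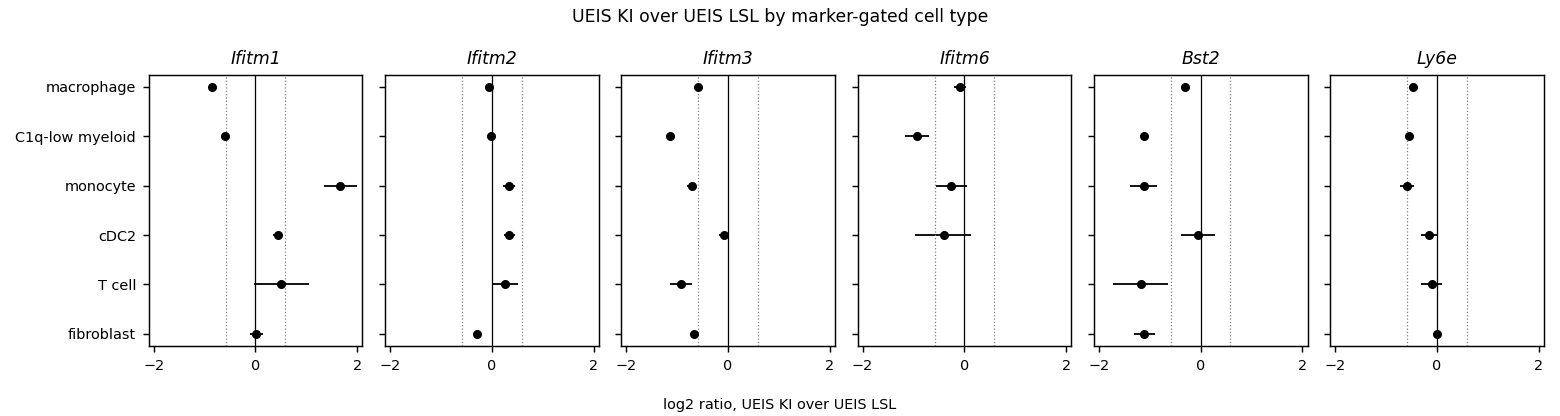
Ratio of the UEIS KI to the UEIS LSL level of each gene in each of 6 gates, on the log2 scale with 95% counting intervals; 0 means an equal level and dotted lines mark 1.5-fold. *Ifitm3* and *Bst2* lie below 0 in 5 gates, their cDC2 intervals include 0, and *Ifitm1* lies at 1.66 in monocytes and -0.85 in macrophages.

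The macrophage states differed in number between the libraries. Macrophages with MHC class II RNA of at least 50 UMIs per 10000 made up 18.8% in KI and 56.0% in LSL, and resident-type macrophages, marked by *Lyve1*, *Folr2*, *Fcna* and *Cd163*, 30.7% in KI and 12.3% in LSL. *Ifitm3* was lower in KI within each state examined, with ratios of 0.624 in resident-type, 0.440 in Spp1-type and 0.576 in dividing macrophages. It stood at 0.808 above the MHC class II limit (973 CPM in KI and 1204 CPM in LSL) and at 0.679 below it (694 CPM in KI and 1023 CPM in LSL). Resident-type macrophages held the most *Ifitm3*, with 1091 CPM in KI and 1750.3 CPM in LSL, and dividing ones the least, with 444 CPM in KI and 771 CPM in LSL.

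*Ifitm1* behaved otherwise and followed MHC class II. Macrophages above the limit held 257 CPM in KI and those below it 24.4 CPM, a 10.5-fold difference (9.86 to 11.2). In LSL they held 185 CPM above and 29.4 CPM below, a 6.27-fold difference (5.81 to 6.78). Between libraries the *Ifitm1* ratio was 1.39 above the limit (1.33 to 1.45) and 0.830 below it (0.757 to 0.909), while over all macrophages it was 0.553. When KI and LSL macrophages were given equal shares of the 3 states and of MHC class II, the log2 ratio of *Ifitm1* was 0.48, against -0.85 as gated. For *Ifitm3*, *Bst2* and *Ly6e* it stayed negative under that weighting, at -0.48, -0.50 and -0.36. *Ifitm6* turned to 0.30 under it, against -0.09 as gated. Equal shares of the 3 states alone left *Ifitm1* at -0.39, and within Spp1-type and dividing macrophages its ratio was 0.460 and 0.405, against 1.10 (0.924 to 1.31) in resident-type ones. The weighting that includes MHC class II was chosen after the data were seen. RNA of other gates moved with MHC class II as well. The 6 cDC2 markers, none of them at 0, summed to 110.1 CPM above and 52.5 CPM below the limit in KI, and to 107 CPM above and 63.2 CPM below it in LSL. The 8 monocyte markers summed to 893 CPM above and 459 CPM below the limit in KI, and to 772 CPM above and 492 CPM below it in LSL. In macrophages without any cDC2 marker UMI, *Ifitm1* stood at 156 CPM above and 23.6 CPM below the limit in KI, and at 125 CPM above and 29.2 CPM below it in LSL.

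*Bst2* ran against MHC class II, at 0.729 times the level above the limit relative to below it in KI (0.694 to 0.765) and 0.845 times in LSL (0.818 to 0.873). *Ifitm6* was 2.86-fold higher above the limit in KI and 1.27-fold higher in LSL. *Ifitm3* was 1.40-fold higher above it in KI and 1.18-fold in LSL, *Ly6e* 1.19-fold in KI and 1.05-fold in LSL, and *Ifitm2* stood at 1.09 in KI and 0.975 in LSL.

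The 6 genes were next set beside 40 other interferon-induced antiviral genes. In macrophages 27 of the 40 were at least 1.5-fold lower in KI and 0 higher, with a median log2 ratio of -0.82 against 0.03 over all measured genes. Of all measured genes, 5.21% were at least 1.5-fold lower and 5.8% higher. *Isg15*, a ubiquitin-like modifier, had 40.3 CPM in KI and 104.9 CPM in LSL macrophages, and *Rsad2*, which codes for viperin, 18.1 CPM in KI and 51.0 CPM in LSL. *Ifi27l2a*, the list's most abundant gene, had 719.8 CPM in KI and 689.5 CPM in LSL. Of the studied genes, 5 had ratios above the list's median and *Ifitm1* lay at its middle. *Ifitm3* lay above 26, *Ly6e* above 31, *Bst2* above 34 and *Ifitm2* and *Ifitm6* above 37 of the 40 list genes, and *Ifitm1* above 20.

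In C1q-low myeloid cells 32 of 38 measured list genes were at least 1.5-fold lower and 0 higher. Their median log2 ratio was -1.33 against 0.00 over all genes, of which 8.52% were lower and 4.18% higher. In monocytes 17 of 25 were lower and 1 higher, with a median of -0.72 against 0.04. Of all genes in monocytes, 5.54% were lower and 6.1% higher. Neutrophil-marker RNA of the monocyte gate, most of it *S100a8*, stood at 406 CPM in KI and 89.4 CPM in LSL, and its part in these counts was not tested. In monocytes with no cDC2 or neutrophil marker UMI, 14 list genes were measured, of which 3 were lower and 3 higher, with a median of -0.17. *Bst2* had a lower ratio than most of the list in monocytes, where 4 of the 25 list genes lay below it, and in T cells, where 2 of 13 did. The T cell list had 5 of 13 genes at least 1.5-fold lower and 0 higher, and a median of -0.28. Of all genes in T cells, 9.59% were lower and 8.7% higher (median 0.05). In fibroblasts 17 of 26 were lower and 0 higher (median -0.91), against 7.99% of all genes lower and 5.86% higher (median 0.02). In cDC2 8 of 22 were lower and 2 higher (median -0.48), although *Ifitm3* and *Bst2* themselves hardly differed there as gated. Of all genes in cDC2, 6.01% were lower and 4.45% higher (median 0.01).

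Within each library, *Ifitm3* and *Bst2* were higher in macrophages that held more RNA of that list. Each macrophage was thinned to 2000 UMIs and binned by its list UMIs. *Ifitm3* averaged 5.14 UMIs per KI macrophage with at least 11 list UMIs and 0.934 in those with 0, a ratio of 5.51. In LSL macrophages it averaged 6.83 and 1.24 UMIs in these bins, also a ratio of 5.51. *Bst2* had a ratio of 2.88 in KI and 4.36 in LSL, and *Ly6e* of 4.30 in KI and 2.96 in LSL. *Ifitm2*, which varied little between libraries, still had ratios of 2.46 in KI and 1.58 in LSL. *Ifitm6* had ratios of 3.76 in KI and 9.27 in LSL, on low means of 0.0235 UMIs in KI and 0.0135 in LSL in the bin of 0. *Ifitm1* had a ratio of 0.446 in KI and 1.59 in LSL, so it did not go with the list in KI.

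At the same number of list UMIs, *Ifitm3* was still lower in KI. Its KI to LSL ratio was between 0.753 and 0.904 over the 5 bins in macrophages and between 0.592 and 0.754 in C1q-low myeloid cells. *Bst2* lay between 0.629 and 0.951 in macrophages. *Ly6e* lay at 0.700 in macrophages with 0 list UMIs and at 1.02 in those with at least 11. The top bin held 6.07% of KI and 7.62% of LSL macrophages, and 2.38% of KI and 13.9% of LSL C1q-low myeloid cells (41 KI and 231 LSL barcodes). The list and these genes were counted in the same barcodes, which share depth and state, and the bins are a description.

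**Figure D5:**
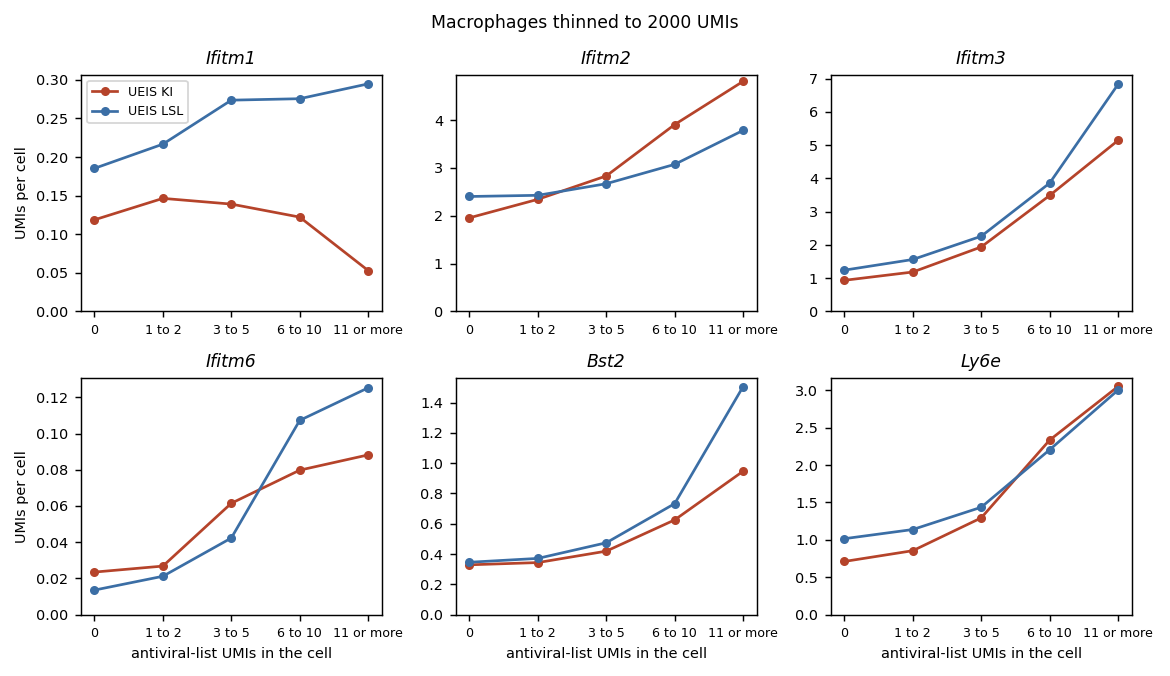
Mean UMIs per barcode of each gene, after thinning to 2000 UMIs, against bins of UMIs of the 40-gene antiviral list, in macrophages of UEIS KI and UEIS LSL. *Ifitm3* is 5.51 times as high in the top bin as in the bin of 0 in both libraries, and its KI line lies below its LSL line in each bin.

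Relatives and partners of these genes were read from 4 further lists. Of 12 other *Ly6* family genes, 5 were measured in macrophages, and 3 of them (*Ly6a*, *Ly6c2* and *Ly6i*) were at least 1.5-fold lower in KI and 0 higher. Over all genes measured in macrophages, 5.21% were lower and 5.8% higher by this limit. *Ly6c2* lay close to the limit, at a ratio of 0.661 (0.582 to 0.751). *Ly6a*, which codes for Sca-1, had 52.4 CPM in KI and 159.8 CPM in LSL macrophages, and 59.7 CPM in KI and 285 CPM in LSL monocytes. In fibroblasts *Ly6a* had 1361 CPM in KI and 1413 CPM in LSL. *Ly6i*, a close relative of *Ly6c*, had 7.31 CPM in KI and 103 CPM in LSL monocytes. The median of the 5 macrophage genes was -0.60 on the log2 scale.

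Of 8 tetraspanins and similar membrane partners, 1 was at least 1.5-fold higher in KI macrophages and 0 lower, near the 5.8% of all genes that were higher. That was *Cd9*, a tetraspanin of the cell surface, which had 649 CPM in KI and 398 CPM in LSL, and in monocytes it had 561 CPM in KI and 275 CPM in LSL. Of 10 other genes that restrict virus entry or budding, 1 was at least 1.5-fold lower and 0 higher in macrophages, near the 5.21% of all genes that were lower. It was *Trim5*, named for that count, with 3.75 CPM in KI and 5.64 CPM in LSL. *Lgals3bp*, which codes for a secreted glycoprotein that binds galectins, had 71.1 CPM in KI and 103.8 CPM in LSL macrophages, short of the limit, and 35.3 CPM in KI and 105 CPM in LSL monocytes. *Samhd1*, an enzyme that depletes nucleotides for virus replication, had 111 CPM in KI and 145 CPM in LSL macrophages. *Ifitm10*, a distant family member, was at 0.949 CPM in KI and 0.526 CPM in LSL macrophages, from 63 KI and 31 LSL UMIs.

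Over 15 points, each a gate with at least 50 barcodes in 1 library, the level of each gene was correlated with that of 5413 others as log2(CPM + 10). The genes most like *Bst2* were *Parp12* (Pearson r = 0.832), *Irf7* (0.816) and *Cept1* (0.815). *Parp12* and *Irf7* are themselves interferon-induced. Those most like *Ifitm3* were *Rnf213* (0.893), *Irgm1* (0.887) and *Notch2* (0.886). For *Ifitm1* they were *Maff* (0.803), *St3gal4* (0.802) and *Med13l* (0.798), for *Ifitm2* *Api5* (0.942), *Themis2* (0.909) and *Siglece* (0.890), for *Ifitm6* *Ndel1* (0.943), *Klhl2* (0.932) and *Kdm7a* (0.928), and for *Ly6e* *Mfsd14a* (0.963), *Spcs2* (0.947) and *Med7* (0.942). Among the 6 genes, *Ifitm2* and *Ifitm6* had 0.823, *Ifitm3* and *Ly6e* 0.766, *Ifitm3* and *Bst2* 0.732, and *Ifitm1* and *Bst2* -0.304. The points come from 8 gates and 2 libraries and share library and depth, so these values are descriptions.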

How the data were processed

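Single sorted CD45+ cells were sequenced with the 10x Genomics 3' v3 kit, 1 library per group. The authors deposited filtered matrices of UMI counts per gene and barcode, not normalised. Per the submitters' processing notes the tools were Cell Ranger 2.1.1 and mm10, whereas the file header names Cell Ranger 8.0.1. Gene coordinates are from GENCODE vM21 (GRCm38), which held 94.1% of the 55357 identifiers. UEIS RNA was not analysed here.

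Barcodes were kept from 500 UMIs and 200 genes upwards if at most 10% of their UMIs were mitochondrial (9442 of 9734 in KI, 9370 of 9527 in LSL, median depths 9004 and 8230 UMIs). A lineage gate needed at least 3 of its markers and at least 10 marker UMIs per 10000. Macrophages needed at least 20 C1q UMIs per 10000 and 4 of 10 markers. Monocytes and C1q-low myeloid cells needed under 10 C1q UMIs per 10000, monocytes also at least 3 of 8 markers, 20 marker UMIs per 10000 and *Ly6c2*, and C1q-low myeloid cells 4 macrophage markers. Barcodes between the C1q limits (488 in KI, 379 in LSL) were left out, and 348 KI and 315 LSL barcodes met the monocyte rate without the *Ly6c2* rule. No doublet caller was run, and barcodes of more than 1 gate (2.89% in KI, 3.29% in LSL) were left out as possible doublets. UMIs were summed per gate and library and divided by the gate's total. Levels have exact Poisson intervals, ratios conditional binomial intervals and shares exact Clopper-Pearson intervals. With 1 library per group there is no test, and a gene is described as past the limit at 1.5-fold among genes with at least 50 UMIs over both libraries. The ratio scripts were tested on simulated data. Of each further list the rule named the 3 members with the most UMIs in a gate and those at least 2-fold apart with at least 200 UMIs, up to 6, and the text gives some of these; *Ifitm10* and *Trim5* were named after their values were seen, as the members of a count of 1. The genes, lists and gates were chosen with earlier results of these data known. Alternatives covered thinning, gate thresholds, UMI minimums, equal weight per cell and the fold limit. Analyses used Python 3.11.15, numpy 2.4.6, scipy 1.17.1, pandas 2.3.3 and matplotlib 3.10.9.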

Additional observations from a re-analysis of the deposited data

Results flagged for a closer look

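*Ifitm1*, the cell-surface member of the family, differed in direction between gates under the same contrast as gated. Its log2 ratio of UEIS KI to UEIS LSL was 1.66 in monocytes, -0.85 in macrophages and -0.60 in C1q-low myeloid cells. These values depended on the processing. The monocyte value was 0.19 without the *Ly6c2* rule. With equal shares of macrophage states and MHC class II, a weighting chosen after seeing the data, the macrophage value was 0.48. The C1q-low myeloid value ran from -0.60 to -0.21 over the alternatives. With 1 library per group, the difference between gates was not tested. In monocytes an *Ifitm1* UMI was seen in 46 of 151 KI and 37 of 170 LSL barcodes. Neutrophil-marker RNA of that gate, most of it *S100a8*, stood at 406 CPM in KI and 89.4 CPM in LSL, and its part in the result was not tested.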

How the results depend on the processing

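Each group held 1 library, so no replicate could be left out. No paired analysis was possible because each group holds 1 library. KI to LSL ratios of single genes were put under the alternatives in macrophages, C1q-low myeloid cells, monocytes, cDC2 and T cells, but not in fibroblasts. Of the KI to LSL ratios of single genes under the alternatives, 227 moved by less than their counting interval, 71 moved by more and 2, at least 1.5-fold as reported, reversed. A further 13, of ratios under 1.5-fold as reported, changed sign, among them *Ifitm1* in T cells, *Ifitm2* and *Ifitm6* in macrophages, and *Ifitm3* and *Bst2* in cDC2. *Ifitm6* in T cells, with 9 UMIs in KI and 5 in LSL, had a log2 ratio of 1.64 and, thinned to 1000 UMIs, of -0.45. *Ifitm1* in macrophages reversed under a same mix of states and MHC class II, chosen after seeing the data, at 0.48 against -0.85. Of the 6 genes, 2 were at least 1.5-fold lower in KI macrophages, and 1 was so under doubled marker thresholds, with barcodes of 2 gates kept, with every cell counted alike, thinned to 1000 UMIs and without the 8% of barcodes with most UMIs. At a 2-fold limit 0 were, and in monocytes 1 of the 2 lower genes was past it. Over all genes, 784 were higher and 704 lower in KI macrophages and 241 higher and 219 lower in KI monocytes. With a minimum of 1 UMI these became 3790, 4635, 2809 and 3023, with 200 UMIs 471, 368, 25 and 46, and at 2-fold 275, 275, 50 and 71. Thinned to 1000 UMIs, 295 were lower in macrophages, and 62 were higher and 80 lower in monocytes. The antiviral list had 27 genes lower in KI macrophages, 17 when thinned and 16 at 2-fold. In monocytes it had 17 lower and 1 higher; thinning or a minimum of 200 UMIs gave 4 lower and 0 higher, a 2-fold limit 8 lower and 0 higher, and a minimum of 1 UMI 2 higher. Doubled thresholds and equal cell weights left 0 higher. Chosen after seeing the data, a monocyte gate without *Ly6c2* gave 600 genes higher and 410 lower, 29 list genes lower and 0 higher, and 0 of the 6 genes higher. Monocytes with no cDC2 or neutrophil marker UMI gave 122 genes higher, 3 list genes higher and 3 lower, and 1 of the 6 genes lower. The cause of these moves was not tested, except that stricter limits and thinning leave fewer genes measured.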
